A study of Homo sapiens with 12 samples.

Results

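ZFP42, TRIML2 and TRIML1 are 3 protein-coding genes that lie next to each other near the end of the long arm of chromosome 4, at 4q35. They were chosen by their measured values, as neighbours whose counts vary together over these same libraries, and make up 3 of the 58735 genes listed. All 3 passed the filter on low counts that left 18415 genes for testing. Because the choice used the counts, their levels and differences are given as a description, with no test.

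The RNA came from SW872, a human liposarcoma cell line, made to express 1 of 2 sarcoma fusion proteins, TAZ-CAMTA1 (TC) or YAP-TFE3 (YT). Each line also carried a non-targeting hairpin (shNT), a hairpin against YEATS2 or a hairpin against ZZZ3, which gave 6 groups of 2 libraries. YEATS2 and ZZZ3 are subunits of ATAC, a histone acetyltransferase complex, and the comparisons ask what losing a subunit does to transcription under each fusion. All 12 libraries express a fusion, and no library of the parental line was analysed here. The lines are pools of cells selected for stably integrated constructs, all derived from a single tumour line. The study describes its sequencing replicates as separate transductions followed by selection and calls the knock-down libraries biological duplicates, while the labels do not say from which cultures the 2 libraries of a group came. Over the 13258 genes that averaged 50 counts or more, 6 libraries correlated more closely with a library of another group than with their own partner. TC shNT and TC shYEATS2 did so number by number (r = 0.977 and 0.974, against 0.952 and 0.966 within the groups). YT shZZZ3 replicate 1 was nearest to TC shZZZ3 replicate 1 (0.968) and replicate 2 to TC shNT replicate 2 (0.967), against 0.961 with each other. Their CAMTA1 was at the level of the YT line (30.42 and 23.18 CPM, beside at least 60.06 in TC libraries). Their TFE3 was at 207.3 and 144.3 CPM, beside 123.7 to 190.6 in TC libraries and 208.2 to 239.5 in the other YT libraries. For TFE3, replicate 2 thus lay within the TC range, and the line of each library was not tested.

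ZFP42, also known as REX1, is a zinc finger protein related to YY1 and a classical marker of undifferentiated embryonic stem cells. TRIML2 and TRIML1 code for relatives of the tripartite motif (TRIM) proteins, most of which attach ubiquitin through a RING domain; TRIML1 has this domain and TRIML2 lacks it. Expression of TRIML1 and TRIML2 is best known from the testis and the early embryo, and TRIML2 is also known as a gene that p53 can switch on. The chromosome around the 3 genes is poor in other protein-coding genes.

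On GRCh38, the ZFP42 gene (ENSG00000179059) spans chr4:187995771-188005046 on the plus strand, TRIML2 (ENSG00000179046) spans chr4:188091272-188109603 on the minus strand, and TRIML1 (ENSG00000184108) spans chr4:188139441-188147743 on the plus strand. The starts of TRIML2 and TRIML1 lie 29.84 kb apart and point away from each other. The ZFP42 start lies 113.8 kb from that of TRIML2 and 143.7 kb from that of TRIML1. The 250 bases before the start of each gene are shown because these promoters differ widely in base composition although the genes' counts varied together. They are RefSeq windows of GRCh38.p14, written 5′ to 3′ on the strand of the gene, with each CG dinucleotide in capitals.
ZFP42 promoter, chr4:187995521-187995770, plus strand: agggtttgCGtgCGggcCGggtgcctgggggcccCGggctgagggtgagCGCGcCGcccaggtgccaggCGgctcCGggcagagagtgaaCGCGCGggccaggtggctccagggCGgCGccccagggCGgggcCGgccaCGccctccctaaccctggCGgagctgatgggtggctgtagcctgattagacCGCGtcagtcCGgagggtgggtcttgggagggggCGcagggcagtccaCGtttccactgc
TRIML2 promoter, chr4:188109604-188109853, minus strand: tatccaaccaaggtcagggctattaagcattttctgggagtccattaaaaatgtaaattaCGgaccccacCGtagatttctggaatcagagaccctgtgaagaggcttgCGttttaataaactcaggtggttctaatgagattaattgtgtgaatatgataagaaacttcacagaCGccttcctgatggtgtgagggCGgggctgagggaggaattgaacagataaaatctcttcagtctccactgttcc
TRIML1 promoter, chr4:188139191-188139440, plus strand: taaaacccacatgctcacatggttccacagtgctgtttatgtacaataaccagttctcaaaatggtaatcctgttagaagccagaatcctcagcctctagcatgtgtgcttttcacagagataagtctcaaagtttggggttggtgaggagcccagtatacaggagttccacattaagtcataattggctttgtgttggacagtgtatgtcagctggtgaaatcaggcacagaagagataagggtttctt
The ZFP42 window is 74.4% G and C and holds 23 CG dinucleotides, against a median of 58.0% and 11 over the 35116 windows of the same length in the RefSeq table. The TRIML2 window is 43.2% G and C with 5 CG dinucleotides, and the TRIML1 window is 42.8% with 0. A second annotated TRIML2 start, whose window is 43.6% G and C with 6 CG dinucleotides, is not shown.

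Both strands of the 4 windows were searched for the M-CAT motif GGAATG of TEAD factors, the E-box CACGTG that TFE3 and its relatives bind, the AP-1 motif TGANTCA, the YY1-like core GCCATNTT, the CCAAT box and the TATA box TATAAA. Over all windows these letters occurred in 11.9%, 6.34%, 6.57%, 3.86%, 32.0% and 10.7%, in that order. The single match was a CCAAT box, in reverse orientation, 67 to 63 bases before the TRIML1 start. No motif searched overlapped another. A match or its absence describes the letters of these windows and not the binding of a factor.

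Levels are counts scaled by TMM to a common library total (CPM), given for replicates 1 and 2 in that order. In the TC line TRIML2 was at 32.96 and 34.78 CPM with shNT, 75.42 and 2.71 with shYEATS2, and 183.4 and 189.3 with shZZZ3. In the YT line it was at 43.93 and 37.27 CPM with shNT, 0.167 and 0.103 with shYEATS2, and 7.28 and 6.94 with shZZZ3. The means therefore ran from 186.3 ± 4.2 CPM (SD, n = 2) in TC shZZZ3 to 0.135 ± 0.045 (SD, n = 2) in YT shYEATS2, where the raw counts were 4 and 2.

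ZFP42, the stem cell factor, was at 12.51 and 13.24 CPM in TC cells with shNT, 31.79 and 2.31 with shYEATS2, and 74.92 and 76.65 with shZZZ3. Its levels in YT cells were 7.23 and 9.55 CPM with shNT, 0.125 and 0.258 with shYEATS2, and 2.73 and 2.20 with shZZZ3. Like TRIML2, it was highest in TC shZZZ3, at 75.78 ± 1.22 CPM (SD, n = 2), and lowest in YT shYEATS2, at 0.192 ± 0.094 (SD, n = 2), with raw counts of 3 and 5.

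TRIML1 was the least abundant of the 3, at 0.763 and 0.669 CPM in TC cells with shNT, 1.09 and 0.151 with shYEATS2, and 6.25 and 5.93 with shZZZ3. In YT cells it was at 0.370 and 0.920 CPM with shNT and 0.182 and 0.169 with shZZZ3, and both shYEATS2 libraries were at 0 counts. Its counts were small in all groups but TC shZZZ3, which alone had over 100 in each library (154 and 111). A count of 0 allows up to 3 counts in the pair.

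**Figure D1:**
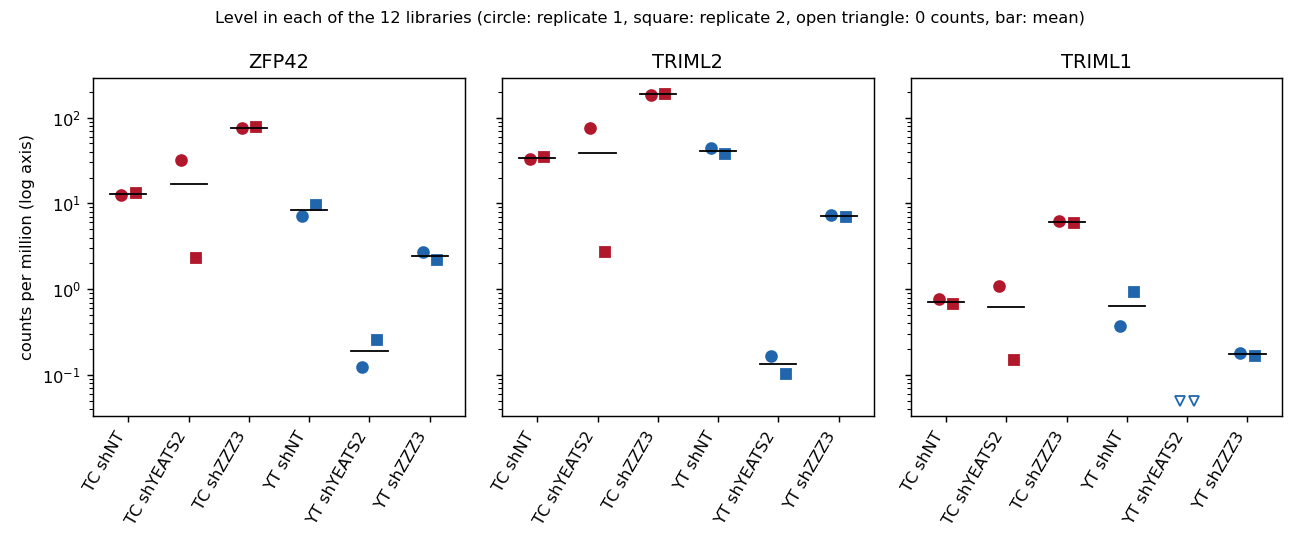
CPM (log axis) of ZFP42, TRIML2 and TRIML1 in each of the 12 libraries, with TC libraries in red and YT libraries in blue; circles are replicate 1, squares replicate 2, bars the group mean, and open triangles libraries with 0 counts, placed at an arbitrary height. All 3 genes are highest in TC shZZZ3 and lowest in YT shYEATS2, and the 2 TC shYEATS2 libraries lie far apart, at 75.42 and 2.71 CPM for TRIML2.

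The order of the 6 groups was similar for the 3 genes but not identical. For TRIML2, TC shZZZ3 was followed by YT shNT, TC shYEATS2, TC shNT, YT shZZZ3 and YT shYEATS2. The libraries of YT shNT and TC shNT each overlapped with the widely spread TC shYEATS2 pair, while all other neighbours in that order stood apart. For ZFP42 the order was TC shZZZ3, TC shYEATS2, TC shNT, YT shNT, YT shZZZ3 and YT shYEATS2, with overlap between TC shYEATS2 and TC shNT. For TRIML1 the 4 groups from TC shNT down to YT shZZZ3 overlapped, neighbour with neighbour. Scaled by exon length so that genes can be compared, TRIML2 was at 11.1 CPM per kb in TC shNT, ZFP42 at 4.85 and TRIML1 at 0.342.

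With the hairpin against ZZZ3 the 3 genes were higher than with shNT in TC cells and lower in YT cells. In TC cells TRIML2 was 5.49-fold higher (log2 difference 2.46 ± 0.88, SE), ZFP42 5.85-fold higher (2.55 ± 0.75) and TRIML1 7.66-fold higher (2.94 ± 0.55). In YT cells TRIML2 was 5.65-fold lower (-2.50 ± 0.90), ZFP42 3.31-fold lower (-1.73 ± 0.78) and TRIML1 2.75-fold lower (-1.46 ± 0.65). In each of these comparisons the 2 knock-down libraries lay on one side of both controls. The same, with opposite directions in the 2 lines, held for 11.1% of all genes tested with this hairpin. With 1 library left out, the YT differences ran from -2.58 to -2.36 for TRIML2, -1.90 to -1.49 for ZFP42 and -1.92 to -0.77 for TRIML1. The YT shZZZ3 libraries, each nearer to a library of another group than to one another, gave the same direction alone. For TRIML1 in YT cells the difference rested on 9 counts against 23, a ratio of 3.60 with an exact 95% counting interval of 1.60 to 8.83. The difference between the lines was not tested. The SEs are wide because the spread of each gene is estimated over all 6 groups, TC shYEATS2 included. Over all genes tested, 0.934% were called higher and 0.592% lower in TC shZZZ3, and 4.4% higher and 5.62% lower in YT shZZZ3. In YT shZZZ3 the ZZZ3 transcript itself fell by 1.51 on the log2 scale (adjusted p = 0.0453, a call that held in 1 of 4 fits with 1 library left out), while in TC shZZZ3 its log2 difference was -0.94 (adjusted p = 0.450), at 21.93 and 22.72 CPM against 25.6 and 60.44. The higher levels of the 3 genes in TC shZZZ3 thus stood beside a ZZZ3 transcript difference that did not pass the test. In TC cells both knock-down libraries lay below both controls, but the controls were far apart, so these values cannot settle how much ZZZ3 fell. In YT cells ZZZ3 was at 12.63 and 29.61 CPM against 71.22 and 49.11 with shNT, so the knock-down libraries differed there too. By western blot, the study reports that the ZZZ3 protein was knocked down in its TC line. It does not say whether the blotted cells were those sequenced.

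With the hairpin against YEATS2 the 3 transcripts were near 0 in YT cells. TRIML2 went from 1480 counts in the 2 shNT libraries to 6 in the 2 shYEATS2 libraries, 295-fold lower with an exact 95% counting interval of 135 to 804. ZFP42 went from 303 to 8 counts, 45.3-fold lower (22.7 to 105.8). TRIML1 went from 23 counts to 0, which makes it at least 9.16-fold lower when 3 counts are allowed over the pair at 0. That bound was 4.05 or 5.05 without a shYEATS2 library, 5.29 without shNT replicate 2 and 13.32 without shNT replicate 1. These intervals cover counting error only; the fitted log2 differences, which a prior count pulls towards 0, were -7.49 ± 1.30 (SE) for TRIML2 and -4.95 ± 1.02 for ZFP42. No library of YT shYEATS2 reached the level of any other library for any of the 3 genes. The share of all genes for which this held is not given here. Many genes moved in this comparison, with 9.61% called higher and 11.1% lower. YEATS2 itself fell by 1.68 on the log2 scale (adjusted p = 0.000105), from 114.6 and 117.4 to 33.88 and 38.5 CPM. The ZZZ3 transcript was at 31.38 and 30.66 CPM against 71.22 and 49.11 with shNT. Its log2 difference of -0.95 did not pass the test (adjusted p = 0.130).

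In TC cells the same hairpin gave no common direction, because its 2 libraries disagreed. Replicate 1 lay above both shNT libraries for all 3 genes and replicate 2 below both. How many of all genes lay on both sides of the controls in this way is not given here. TRIML2 was 27.8-fold higher in replicate 1 than in replicate 2, ZFP42 13.8-fold and TRIML1 7.25-fold. The averaged log2 differences were 0.21 ± 0.84 for TRIML2, 0.42 ± 0.72 for ZFP42 and -0.11 ± 0.60 for TRIML1. Without replicate 1 they were -3.62, -2.45 and -1.76, and without replicate 2 they were 1.13, 1.28 and 0.53. Over all genes 0.0326% were called higher and 0.0109% lower. YEATS2 was low in both libraries, at 45.46 and 35.11 CPM against 112.6 and 123.0 with shNT, and CAMTA1, part of which the fusion contains, was at 110.5 and 78.2 CPM, above the 23.18 to 30.42 of all YT libraries.

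TRIML2 and ZFP42 were among the most discordant genes of that pair. Of the 13258 genes that averaged 50 counts or more, TRIML2 had the second largest absolute log2 difference between the 2 libraries and ZFP42 the 9th largest. TRIML1, too low for that set with 31 and 3 counts in the pair, ranked 136 among the 18415 genes tested. The largest belonged to EBF2, a transcription factor gene named here after its values were seen, which went the other way, at 1.48 and 44.65 CPM. KDR, an endothelial marker and also named after its values were seen, ranked 11. It was at 12.76 and 133.0 CPM, beside 11.2 to 35.19 in the other 10 libraries. PECAM1, CDH5 and VWF, the other endothelial markers counted here, were not among the 15 largest differences. The part of KDR in the split was not tested. In all, 100 of these genes differed over 4-fold within the TC shYEATS2 pair, against 4 in TC shNT, 0 in TC shZZZ3, 0 in YT shNT, 1 in YT shYEATS2 and 14 in YT shZZZ3. The median absolute log2 difference of these genes was larger in TC shNT (0.483) and YT shZZZ3 (0.433) than in TC shYEATS2 (0.247), so the TC shYEATS2 pair stood out by its few large differences and not over most genes. Within every other group TRIML2 differed by 1.61-fold or less. What set the 2 libraries apart was not tested.

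**Figure D2:**
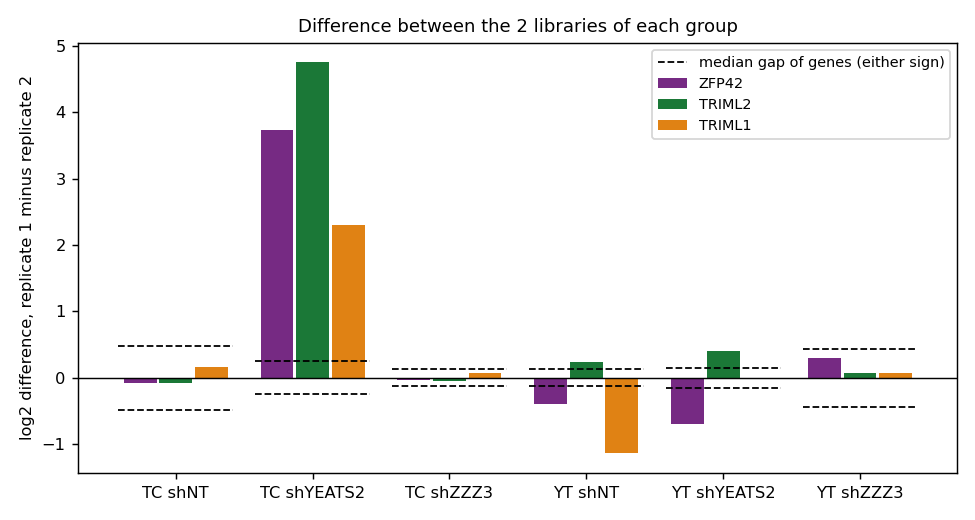
Difference on the log2 CPM scale (prior count 2) between replicate 1 and replicate 2 of each group for ZFP42, TRIML2 and TRIML1, with dashed lines at plus and minus the median absolute difference of the 13258 genes that averaged 50 counts or more. The bars of TC shYEATS2 reach 4.75 for TRIML2, 3.73 for ZFP42 and 2.30 for TRIML1, beside a median of 0.247 (0.483 in TC shNT and 0.433 in YT shZZZ3), and all other bars stay between -1.14 and 0.41.

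Under the control hairpin the 2 fusions gave levels of like size. ZFP42 had the lower level in the YT line, with a YT minus TC log2 difference of -0.61 ± 0.73 (SE). TRIML2 was slightly higher (0.26 ± 0.84), and the libraries of TRIML1 overlapped (-0.15 ± 0.60). All 3 differences were smaller than their SE, while 5.58% of all genes were called higher and 3.65% lower. These SEs also carry the spread of the TC shYEATS2 pair, which is not part of this comparison. For ZFP42 and TRIML2 the libraries of the 2 lines did not overlap, and the share of all genes doing so is not given here. The large differences between the lines lay in the knock-downs, and both hairpins of a line were set against the same shNT libraries.

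Across the 12 libraries the log2 levels of ZFP42 and TRIML2 had a Pearson r of 0.976 (Spearman rho 0.923), those of ZFP42 and TRIML1 an r of 0.963 (0.956), and those of TRIML2 and TRIML1 an r of 0.919 (0.942). Within the 6 libraries of one line r ran from 0.936 to 0.991. Without the 2 libraries farthest from the median, r was 0.955, 0.967 and 0.917. These values describe the property for which the genes were chosen, and the libraries share cell line, hairpins and sequencing. The ratio of counts was less constant. TRIML2 had 2.37 to 2.63 counts for each count of ZFP42 in both shNT and shZZZ3 libraries of TC cells and in TC shYEATS2 replicate 1, but 6.07 and 3.90 in YT shNT, 2.67 and 3.15 in YT shZZZ3 and 1.17 in TC shYEATS2 replicate 2. The ratios of 1.33 and 0.4 in YT shYEATS2 rest on single-digit counts.

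**Figure D3:**
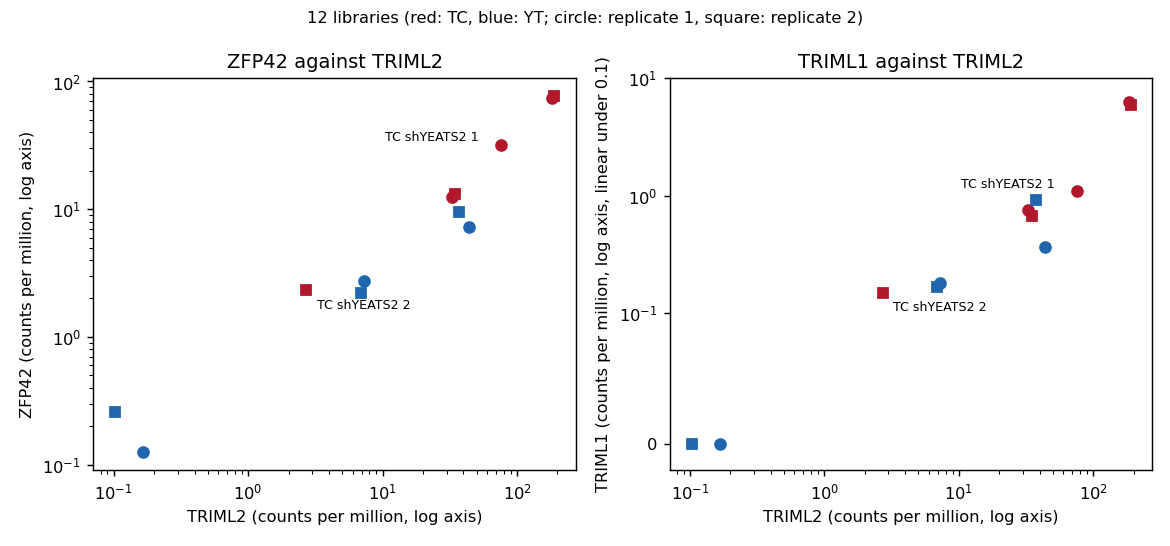
ZFP42 (left) and TRIML1 (right) against TRIML2 in CPM on log axes, with the TRIML1 axis linear under 0.1 so that libraries at 0 can be shown; each point is one of 12 libraries, TC in red and YT in blue, circles replicate 1 and squares replicate 2. The points rise together over 3 orders of magnitude of TRIML2, and TC shYEATS2 replicate 2 falls near the YT shZZZ3 libraries while replicate 1 sits between TC shNT and TC shZZZ3.

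The genes most alike to the 3 over the libraries, picked as the highest r of 18415, lay on several chromosomes. For TRIML2 the 5 genes with the highest r of log2 CPM over the 12 libraries were CALB2 (0.977), ZFP42 (0.976), NUAK1 (0.974), KIAA1217 (0.960) and SDR42E1 (0.958), and TRIML1 came at rank 44. For ZFP42 they were TRIML2, CALB2 (0.964), TRIML1, PCDHGB5 (0.960) and KIAA1217 (0.959), and for TRIML1 they were ZFP42, CYP3A4 (0.95), SLC1A6 (0.949), CLEC4G (0.941) and TSPAN18 (0.933). Of the 12 different genes in these lists, the only ones on chromosome 4 were the 3 genes themselves. CALB2, the calcium-binding protein calretinin, lies on chromosome 16 and was at 7.02 and 4.30 CPM in TC cells with shNT, 17.62 and 2.21 with shYEATS2 and 65.01 and 52.22 with shZZZ3. In YT cells it was at 11.62 and 11.5 CPM with shNT, 0.125 and 0.0516 with shYEATS2 and 4.66 and 1.95 with shZZZ3. CALB2 thus shared the high level in TC shZZZ3, the near loss in YT shYEATS2 and the split of the TC shYEATS2 pair. NUAK1, a kinase of the AMPK family, followed the order within a narrower range, from 17.6 to 51.0 CPM. The lists depend on the measure, as 0 or 1 of each 5 stayed when the libraries of a single line were used.

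The next genes along the chromosome were looked at for the same pattern. Within 1 Mb of the 3 genes GENCODE annotates 31 others, of which 20 had at least 1 count and 6, all of them non-coding genes or pseudogenes, were tested. The neighbours' own values may have had a part in the choice of the 3 genes. LINC02434, a long non-coding RNA 11.96 kb beyond TRIML1 on the same strand, had 3 and 6 counts in TC cells with shNT, 12 and 1 with shYEATS2 and 13 and 14 with shZZZ3. In YT cells it had 8 and 7 counts with shNT, 0 and 0 with shYEATS2 and 0 and 1 with shZZZ3. At these low counts it followed the 3 genes, the split pair included. It was called lower in YT shYEATS2 (adjusted p = 0.0225), at least 5.97-fold when 3 counts are allowed over the pair at 0, and leaving out any 1 of the 4 libraries ended the call (adjusted p from 0.0758 to 0.119). In YT shZZZ3 its ratio was 21.1-fold lower with an exact 95% counting interval of 3.25 to 888.7, without passing the test (adjusted p = 0.0568), and in TC shZZZ3 its log2 difference was 1.35 (adjusted p = 0.463). Its r with the 3 genes over the 12 libraries was 0.879 to 0.886.

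LINC01060, a longer non-coding gene 253 kb beyond TRIML1, had another pattern. Under shNT it had 50 and 50 counts in TC cells against 10 and 8 in YT cells, with a YT minus TC log2 difference of -1.93 ± 0.43 (SE, adjusted p = 0.0160), a comparison in which the 3 genes differed little. That call held in 2 of the 4 fits that each left out 1 library. It was called in none of the knock-downs. With the ZZZ3 hairpin it had 72 and 89 counts in TC cells, above both controls like the 3 genes (log2 difference 0.81, adjusted p = 0.456), and a log2 difference of 0.10 in YT cells. With the YEATS2 hairpin its log2 differences were -1.02 in TC and -0.42 in YT cells. The other 4 tested genes within 1 Mb, ENSG00000250658, LINC02515, LINC02492 and ENSG00000180015, were called in none of the comparisons. Within the span of the 3 genes lie ENSG00000241011, RNU6-173P and ENSG00000247130, the last within the TRIML1 gene on the opposite strand, with 2, 7 and 8 counts over all libraries, too few to test. As the kit keeps strand but its use in counting is not stated, reads of TRIML1 and ENSG00000247130 might not be separated.

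The nearest tested protein-coding genes on either side were called in none of the 5 comparisons. FAT1, a giant atypical cadherin 1269 kb towards the centromere, ranged from 220.8 to 428.8 CPM over the 12 libraries. FRG1, 1793 kb towards the telomere in the region linked to facioscapulohumeral dystrophy, ranged from 9.003 to 13.11 CPM. In YT shYEATS2 their log2 differences were -0.09 ± 0.29 and -0.20 ± 0.22 (SE).

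Within 5 Mb 41 other genes were tested. In YT shYEATS2, 3 of them were called higher and 11 lower, or 34.15%, beside the 9.61% and 11.1% of all genes, and their median log2 difference was -0.21 beside -0.01 over all genes. STOX2, a storkhead-box gene 3972 kb away, fell from 19.8 and 15.93 to 0.208 and 0.361 CPM (log2 difference -5.61 ± 0.58, adjusted p = 9.43e-05). FAM149A, 1820 kb away, fell from 4.65 and 6.56 to 0.333 and 0.258 CPM (-3.88 ± 0.34, adjusted p = 3.88e-05). TLR3, a receptor for double-stranded RNA, fell from 22.7 and 20.53 to 5.70 and 5.88 CPM (-1.88 ± 0.32, adjusted p = 0.00204), and ACSL1, which activates long-chain fatty acids, fell from 29.99 and 32.44 to 15.28 and 12.8 CPM (-1.15 ± 0.19, adjusted p = 0.00183). ENPP6 fell from 57 to 3 counts, a ratio of 22.7 with an exact 95% counting interval of 7.38 to 113.3 (adjusted p = 0.00127). These 5 calls held whichever of the 4 libraries was left out, although the number of neighbours called then dropped to 6 or 7. All 5 genes lie on the centromeric side, as do 37 of the 41 tested, with FAT1 between them and the 3 genes.

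In YT shZZZ3, 2 of the 41 were called higher and 3 lower, or 12.2% beside 4.4% higher and 5.62% lower over all genes. FAM149A (-1.80 ± 0.29, adjusted p = 0.00294), STOX2 (-2.64 ± 0.46, adjusted p = 0.00508) and ACSL1 (-0.86 ± 0.19, adjusted p = 0.0163) fell again, while CENPU, a centromere protein gene, and SORBS2, an actin-associated adaptor, rose by 1.37 and 0.94 on the log2 scale. FAM149A and STOX2 held whichever library was left out, CENPU in 1 of the 4 cases, and ACSL1 and SORBS2 in 0. In TC shYEATS2 and TC shZZZ3 none of the 41 was called by edgeR or by DESeq2, with 3 at an unadjusted p under 0.05 by edgeR in each. STOX2 was at 5.48 and 5.72 CPM in TC shZZZ3 against 2.48 and 3.73 in TC shNT, higher in both libraries without a call. In TC shYEATS2 STOX2 was at 6.10 and 1.76 CPM, on both sides of these controls like the 3 genes. FAM149A did not split there, at 4.19 and 3.16 CPM against 2.44 and 1.82 in TC shNT. Under the control hairpin 5 of the 41 were called higher and 2 lower in YT than in TC cells, or 17.07% beside 5.58% and 3.65% of all genes, with STOX2 (2.50 ± 0.46, adjusted p = 0.00663), FAM149A (1.35 ± 0.28, adjusted p = 0.0123), ACSL1 (0.94 ± 0.19, adjusted p = 0.0110) and F11-AS1 (1.33 ± 0.31, adjusted p = 0.0214) among those higher. None of these 4 held in every fit with 1 library left out.

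**Figure D4:**
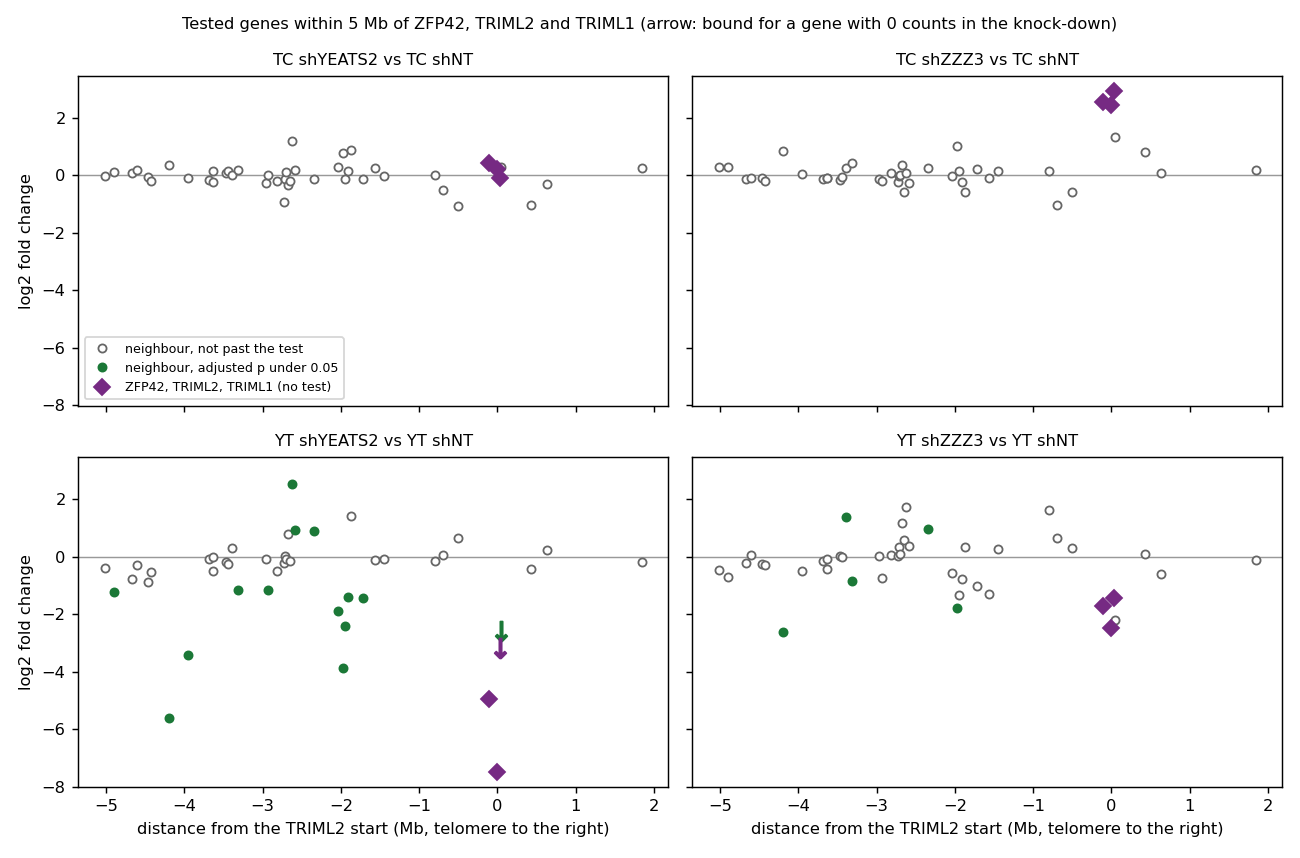
Log2 fold change of the tested genes within 5 Mb of the 3 genes against distance from the TRIML2 start in Mb, for each hairpin against shNT in TC cells (top) and YT cells (bottom); filled green circles are neighbours past an adjusted p of 0.05, open circles neighbours that were not, purple diamonds the 3 untested genes, and arrows bounds for genes with 0 counts in the knock-down. In TC shZZZ3 the 3 genes stand at 2.46 to 2.94 with no neighbour called, whereas in YT shYEATS2 14 neighbours were called, 13 of the 37 tested on the centromeric side and 1 of the 4 on the telomeric side.

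Other genes of the same kinds were counted for comparison. Of 28 pluripotency genes other than ZFP42, 10 were tested, while POU5F1, NANOG and SOX2, the core factors of stem cells, had 49, 2 and 6 counts over all 12 libraries and were not. In YT shYEATS2, 2 of the 10 rose and 3 fell, beside 9.61% and 11.1% of all genes (median log2 difference -0.25 beside -0.01). TFCP2L1 fell by 3.58 on the log2 scale (adjusted p = 7.68e-05) and KLF4 by 2.07 (adjusted p = 0.00111), and LEFTY1 and KLF5 rose by 3.24 (adjusted p = 0.000518) and 2.51 (adjusted p = 9.81e-05). In YT shZZZ3, where 4.4% of all genes were higher and 5.62% lower, LEFTY1 (1.99) and KLF5 (1.67) rose and KLF4 fell (-1.52). Under shNT KLF4 (2.40) and TFCP2L1 (2.03) were higher and KLF5 lower (-1.01) in YT than in TC cells, beside 5.58% and 3.65% of all genes. In TC cells edgeR called none of the 10 with either hairpin, with 2 and 3 at an unadjusted p under 0.05 for shYEATS2 and shZZZ3, and DESeq2 called 1 in each. With any 1 library left out, the YT shYEATS2 calls named here, KLF5 in YT shZZZ3, and KLF4 and TFCP2L1 under shNT held, and the others did not in every case. The pluripotency genes called thus went in both directions, in cells with few or no counts of the core factors.

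Of 30 germline genes, chosen because TRIML1 and TRIML2 are known from the testis, 15 were tested. In YT shYEATS2, SPANXB1 (2.26) and PRAME (0.63) rose and PAGE1 (-1.36) and GAGE1 (-0.99) fell. These 4 are 26.67% of the list, near the share of all genes called (9.61% higher and 11.1% lower). SPANXB1, PAGE1 and GAGE1 belong to multicopy families, whose counts may be split between near-identical copies. SPANXB1 also rose in YT shZZZ3 (1.46, adjusted p = 0.00144) and fell in TC shZZZ3 (-1.22, adjusted p = 0.0131), the reverse of the 3 genes, and was the sole germline gene called in either. It was also the sole one called under shNT, lower in YT than in TC cells (-0.80), and in TC shYEATS2 edgeR called none, with 1 at an unadjusted p under 0.05, and DESeq2 called 1. The SPANXB1 calls in the YT knock-downs were the only ones named here that held whichever library was left out.

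Of 25 p53 targets 23 were tested, a list counted because p53 is known to induce TRIML2. In YT shYEATS2 6 fell and 0 rose, or 26.09% called beside 9.61% higher and 11.1% lower over all genes. GDF15, a secreted stress cytokine, fell from 21.17 and 17.48 to 0.791 and 0.774 CPM (-4.48 ± 0.48, SE, adjusted p = 0.000120), the death receptor FAS fell by 1.82, SESN2 by 1.25 and TNFRSF10B by 1.13 on the log2 scale. In YT shZZZ3 5 fell and 0 rose (21.74% called, beside 4.4% higher and 5.62% lower over all genes), led by GDF15 (-3.24 ± 0.44, adjusted p = 0.00136) and ZMAT3 (-1.73 ± 0.29, adjusted p = 0.00363). In TC shZZZ3 the cell cycle inhibitor CDKN1A alone was called, higher by 1.35 ± 0.27 (adjusted p = 0.0316), and in TC shYEATS2 edgeR and DESeq2 called none, with 3 at an unadjusted p under 0.05 by each. Under shNT 5 of the 23 were higher in YT than in TC cells and 0 lower, beside 5.58% and 3.65% of all genes. GDF15 was higher by 5.32 ± 0.51 (adjusted p = 0.000135). Whether p53 had a part in the levels of the 3 genes was not tested. GDF15 in its 3 comparisons, TNFRSF10B in YT shYEATS2 and ZMAT3 in YT shZZZ3 held whichever library was left out, and the list counts then ran from 2 to 4 in YT shYEATS2, 3 to 5 in YT shZZZ3 and 2 to 6 under shNT. CDKN1A in TC shZZZ3 held in 1 of 4 cases. Medians over the list were -0.12 in YT shYEATS2, -0.19 in YT shZZZ3 and 0.13 in TC shZZZ3.

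YY1 and YY2, the relatives of ZFP42, were both tested and called in none of the comparisons by edgeR or DESeq2, with 1 of them at an unadjusted p under 0.05 by edgeR in YT shZZZ3 and 1 under shNT. Of 67 TRIM genes, 49 were tested. In YT shYEATS2 7 rose and 4 fell, 22.45% of them and near the share of all genes called (9.61% higher and 11.1% lower). TRIM29 changed the most (-2.76 ± 0.46, adjusted p = 0.00184), followed by TRIM58 (-1.75), TRIM9 (1.35) and TRIM36 (1.15). TRIM29 alone of these held whichever library was left out, when 1 or 2 of the TRIM genes were called. In YT shZZZ3 3 rose and 1 fell (8.16%), in YT shNT against TC shNT 2 were higher and 1 lower (6.12%), both below the shares of all genes called there, and in the TC knock-downs edgeR called none, with 2 at an unadjusted p under 0.05 in shYEATS2 and 3 in shZZZ3, and DESeq2 called 0 and 1. The median of the TRIM genes stayed between -0.09 and 0.10 in all 5 comparisons.

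Totals ran from 17451893 to 29294805 counts per library. All 7 mesenchymal markers were above 1 CPM on average, summing to 5418 to 12170 CPM, while only 2 of 5 adipocyte markers were. Embryonic stem cell markers summed to 1.83 to 14.26 CPM with 1 of 5 above 1 CPM, LIN28A, epithelial markers to 2.70 to 7.65 with 1 of 4, leukocyte markers to 0.954 to 4.70 with 1 of 4, and endothelial markers to 31.69 to 244.5 with 4 of 4. Their part in the results was not tested, and in bulk RNA a change in the share of cells that express a gene and a change per cell cannot be told apart.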

How the data were processed

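The authors deposited raw counts per gene for 12 libraries. Per the labels, libraries were made with a TruSeq stranded mRNA kit, converted with bcl2fastq and placed on hg38. The study's methods describe HISAT2 alignment in a bcbio-nextgen pipeline with Ensembl annotation, and Salmon with tximport; which of these gave the deposited counts, and how strand was handled, is not given in the sources used here. The counts as deposited carry no filter or scaling, while the study ran its own differential expression with DESeq2. Samples were grouped by their labels.

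Gene IDs were joined to GENCODE release 44, which held 99.1% of them. The 18415 genes that averaged at least 5 counts were TMM-scaled and fitted over all 6 groups with the quasi-likelihood test of edgeR 4.0.16 in R 4.3.3, leaving 6 residual degrees of freedom. Fold changes use a prior count of 2. Each hairpin was compared with shNT within its line, and YT shNT with TC shNT. P-values were adjusted by Benjamini-Hochberg over all genes tested, and genes under 0.05 are called higher or lower. The fit was also run on simulated counts, with results that are not given here. DESeq2 1.42.0, 2 other scalings, no filter, the 4 libraries alone, a replicate block, leaving out each library, and windows of 1 and 10 Mb were the alternatives.

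The 3 genes, the gene lists and the rule for naming genes were chosen with earlier results of these data known. The rule names the genes within 1 Mb that have a count, up to 5 neighbours called per comparison by smallest adjusted p, up to 4 list genes per comparison by largest change, and the 5 genes most like each of the 3 by Pearson r. Marker lists name other cell types. Promoter windows are from RefSeq.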

Additional observations from a re-analysis of the deposited data

Results flagged for a closer look

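Results were singled out here where both libraries of a hairpin lay on one side of both shNT libraries in TC cells and on the opposite side in YT cells. The differences between the lines were not tested, and values are the YT minus the TC log2 difference. With the ZZZ3 hairpin this held for ZFP42 (-4.28), TRIML2 (-4.96) and TRIML1 (-4.39), all higher in TC and lower in YT cells, and for LINC02434 (-3.55), next to TRIML1.

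Of the 39 genes compared, 19 met this with the ZZZ3 hairpin, as did 2049 of the 18415 genes tested (11.1%). The 39 had been named for their calls, their position or as the 3 genes, so the 2 shares cannot be compared. Among the neighbours these were STOX2 (-3.48), FAM149A (-2.81), ACSL1 (-1.29), F11-AS1 (-1.26) and LINC02492 (0.89). Among the lists they were GDF15 (-5.19), TRIM58 (-2.99), KLF4 (-2.88), TRIM29 (-2.25), TFCP2L1 (-2.03), SESN2 (-1.73) and TNFRSF10B (-1.32), and, in the opposite direction, SPANXB1 (2.67), KLF5 (2.41) and TRIM71 (1.83).

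With the YEATS2 hairpin 9 genes met it, as did 1560 of the genes tested (8.47%), none of them ZFP42, TRIML2 or TRIML1, whose 2 TC libraries lay on both sides of the controls. They were GDF15 (-6.16), TFCP2L1 (-4.73), FAM149A (-4.64), KLF4 (-3.30), SESN2 (-2.19), TNFRSF10B (-1.33), ACSL1 (-1.32), LINC02492 (1.71) and SPANXB1 (3.35).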

How the results depend on the processing

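The log2 differences of the 3 genes kept their direction in the shZZZ3 and the YT shYEATS2 comparisons under all alternatives run. In TC shYEATS2 they turned with 1 library: leaving out each in turn gave -3.62 to 1.13 for TRIML2, -2.45 to 1.28 for ZFP42 and -1.76 to 0.53 for TRIML1. Leaving out a library gave 2.40 to 2.48 (TRIML2), 2.49 to 2.57 (ZFP42) and 2.84 to 3.01 (TRIML1) in TC shZZZ3. It gave -2.58 to -2.36, -1.90 to -1.49 and -1.92 to -0.77 in YT shZZZ3, the last without YT shNT replicate 2. In YT shYEATS2 it gave -7.71 to -7.31 for TRIML2, -5.31 to -4.59 for ZFP42 and bounds of 4.05 to 13.32-fold for TRIML1. Under shNT it gave 0.11 to 0.34, -0.86 to -0.45 and -0.85 to 0.30, the last turning without YT shNT replicate 1. DESeq2 moved YT shYEATS2 to -8.20 for TRIML2 and -5.46 for ZFP42 and TC shZZZ3 to 3.09 for TRIML1. Depth limits TRIML1 and LINC02434, which had few counts in most libraries.

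The labels do not say what the numbers 1 and 2 share, and they did not pair the libraries in every group. Deviations of same-numbered libraries correlated at 0.18 to 0.428 among the TC groups, -0.367 to 0.0313 among the YT groups, and -0.438 to 0.898 between the lines, the highest between TC shNT and YT shZZZ3 (13258 genes). With the replicate block, TRIML2 in TC shYEATS2 turned to -0.13 and 28 genes were called there in place of 8; in TC shZZZ3 it called 1 pluripotency and 1 TRIM gene in place of 0. All 60 calls of named genes held with it.

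Counts of genes called were 8, 281, 3821, 1846 and 1699 for TC shYEATS2, TC shZZZ3, YT shYEATS2, YT shZZZ3 and YT against TC shNT. They moved to 213, 744 and 2710 for the first, the second and the fifth without the filter, to 117 and 532 for the first and the second with DESeq2, and to 2, 155, 8784 and 994 for the first 3 and the fifth with the 4 libraries alone. Leaving out 1 library gave 2 to 77, 50 to 151, 1516 to 1644, 501 to 1549 and 470 to 3112. The 77 came without TC shYEATS2 replicate 2 and the 3112 without TC shNT replicate 2. Neighbours called within 5 Mb, 0, 0, 14, 5 and 7 in that order, were 0 in both TC knock-downs and 6 to 7, 2 to 4 and 1 to 10 in the others when 1 library was left out. They were 8 in YT shZZZ3 without the filter and 3 in both YT shZZZ3 and YT against TC shNT with 4 libraries, and 1, 0 and 1 of the last 3 comparisons lay within 1 Mb. The p53 targets and TRIM genes called in YT shYEATS2 went from 6 and 11 to 15 and 26 with the 4 libraries alone. Of 60 calls of named genes, 25 held whichever library was left out, 54 with library totals and 58 with DESeq2, and 43 of 59 with the 4 libraries of the comparison alone. The 5 genes most like each of the 3 changed with the measure, with 0 to 5 of 5 shared.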
